A study of Mus musculus with 6 samples.

Results

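The octamer-binding factors Oct1 (gene Pou2f1) and Oct2 (Pou2f2), their B cell coactivator OBF-1 (Pou2af1), and the Oct2-dependent genes Crisp3 and Cd36 were followed in follicular B cells with and without myosin IIa. These 5 genes make up 11 of the 25017 entries of the deposited expression table, which covers 20458 gene names. Crisp3 was chosen by its own FPKM in the 2 genotypes, which was higher without myosin IIa, and the other 4 genes were chosen for their known link to Oct2. The sorted population was B220+AA4.1-CD23+CD21lo, from C57BL/6 mice of the genotypes CD23Cre+Myh9wt/fl (n = 3, haploinsufficient below) and CD23Cre+Myh9fl/fl (n = 3, myosin IIa-deficient or deficient below). All 6 mice carried Cre driven by the CD23 (Fcer2) promoter, which is active from the transitional stage onward and removes the floxed exon of Myh9. The comparison group thus lost 1 copy of Myh9 as well and is not wild-type. The study used young adult mice of both sexes for its ex vivo work, and the ages of the 6 mice here are not given separately. RNA was amplified before sequencing, and 1 pooled value per genotype was used for each entry, in FPKM, which counts fragments relative to the length of the transcript and to all mapped fragments. The spread between mice is not known for any value below, no test was run, and the depth per sample is unknown.

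Oct1 and Oct2 bind the octamer, a short DNA element found in immunoglobulin promoters and enhancers, through their POU domain. Oct1 is present in most cell types, whereas Oct2 is enriched in B cells. OBF-1, also called OCA-B or Bob1, docks onto either factor at the octamer and is required for germinal center formation. Crisp3 encodes a secreted cysteine-rich protein of the CAP superfamily, and Cd36 encodes a class B scavenger receptor that binds fatty acids, oxidized lipoproteins and thrombospondin. Expression of both genes in B cells is known to depend on Oct2.

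The sequence upstream of Crisp3 is shown because Oct2 acts through octamer-like elements. The 250 bases before the RefSeq start of Crisp3 lie at chr17:40242289-40242538 on the minus strand of GRCm38.p6. They are printed 5′ to 3′ on the strand of the gene, and capitals mark the first 7 bases of the octamer as read on the opposite strand.

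Crisp3: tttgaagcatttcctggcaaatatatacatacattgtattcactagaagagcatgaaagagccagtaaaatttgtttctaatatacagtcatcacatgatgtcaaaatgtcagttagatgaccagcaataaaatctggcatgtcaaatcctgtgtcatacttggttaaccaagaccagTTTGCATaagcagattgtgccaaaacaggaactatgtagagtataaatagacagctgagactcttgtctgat

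The octamer searched was ATGCAAAT, on both strands of windows from 250 bases before to 50 bases after each RefSeq start. The window of Crisp3 did not hold it in full. Its best site matched 7 of 8 bases and lay from 73 to 66 bases before the start (positions -73 to -66), on the opposite strand. All 8 octamer bases occurred in 1.74% of the 32851 windows, its first 7 bases ATGCAAA, which also occur within every full octamer, in 4.63%, and a site with at least 7 matching bases in 18.6%. Among the windows of the 5 genes, only those of Crisp3 and Pou2af1 held a site with 7 of 8 bases. The sites of these genes and of Spib and Btk, other known targets of the octamer factors, are given below in the direction of the octamer, with the differing base in capitals.

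Crisp3: atgcaaaC

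Pou2af1: Gtgcaaat

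Spib: Ctgcaaat

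Btk: aGgcaaat

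Counted from the first base of the octamer, the Crisp3 site carries T8C, the Pou2af1 site A1G, the Spib site A1C and the Btk site T2G. The windows of Cd36, Pou2f2 and Pou2f1 matched 6 of 8 bases at best. Among the other known targets, Il5ra, Il6 and Bcl2 also matched 6 of 8 bases at best. No window was at hand for Cxcr5, Ms4a1 and Cd79b. Cd36, Pou2f2 and Pou2f1 have other annotated starts, and only the RefSeq windows at hand were searched (1 for Cd36, 1 for Pou2f2 and 3 for Pou2f1). A short stretch just after the start was not found in the GENCODE M21 transcripts of the gene for the windows of Cd36 and Pou2f2 and for 1 of those of Pou2f1. These matches describe the sequence only.

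The Myh9 transcript level was lower in deficient cells. Myh9 was at 50.6 FPKM in haploinsufficient and 21.1 FPKM in deficient cells, 41.7% of the haploinsufficient level. It has a single entry without values per exon, so loss of the floxed exon cannot be read from it. The source of the remaining Myh9 transcript was not tested. The paper checked the deletion in follicular B cells by mRNA of that exon and by western blot. B cell markers were present in both genotypes. All 10 genes of a B cell marker list were detected, with Cd74 at 7307 and 7237 FPKM and Cd79a at 1098 and 1115 FPKM, and their median log2 ratio of deficient over haploinsufficient cells was 0.043. The highest ratio on this list was that of Fcer2a, which encodes the sort marker CD23 and whose promoter drives Cre, at 439 and 588 FPKM, a log2 ratio of 0.42. Ratios were computed after adding 1 FPKM to each value. Genes averaging 1 FPKM or more over both genotypes were compared, 9879 in all, whose median log2 ratio was 0.0026.

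OBF-1 was the most abundant of the 5 transcripts. Pou2af1 (chromosome 9 from 51213708 to 51240080, plus strand, GRCm38) was at 604 FPKM in haploinsufficient and 633 FPKM in deficient cells, a log2 ratio of 0.069. By mean FPKM it ranked 116 among the 9879 genes compared. The deficient level was 105% of the haploinsufficient level.

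Oct2 was the next most abundant. Pou2f2 (chromosome 7 from 25087344 to 25179726, minus strand), summed over its 4 entries, was at 52.7 FPKM in haploinsufficient and 59.0 FPKM in deficient cells, a log2 ratio of 0.16. Pou2f1, encoding Oct1 (chromosome 1 from 165865154 to 166002678, minus strand), was at 23.2 and 23.0 FPKM, a log2 ratio of −0.017. Both summed levels were thus close in the 2 genotypes. Oct2 transcripts outnumbered Oct1 transcripts per length by 2.27 times in haploinsufficient and 2.57 times in deficient cells. OBF-1 transcripts exceeded the sum of both factors by 7.95 and 7.72 times.

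**Figure D1:**
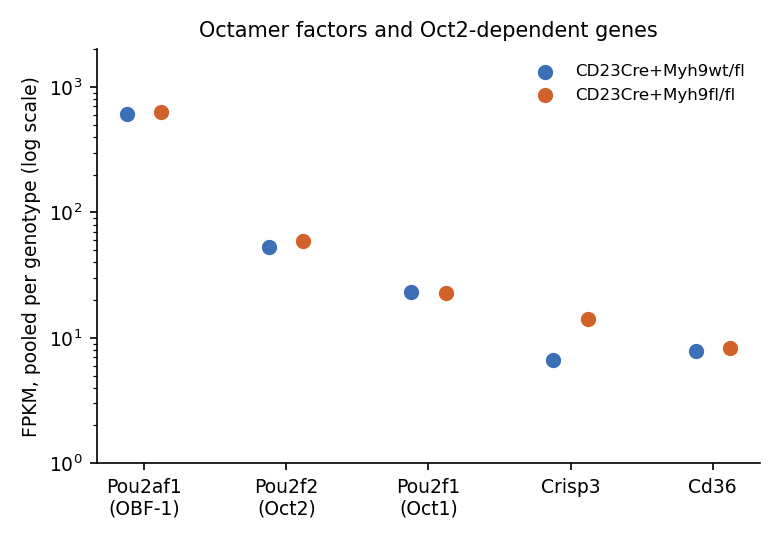
FPKM of the 5 genes on a log axis, with 1 point per genotype, each a value that the authors pooled over 3 mice, so there are no error bars. The points of Pou2af1, Pou2f2, Pou2f1 and Cd36 nearly coincide, whereas Crisp3 stood at 6.59 FPKM in haploinsufficient and 14.1 FPKM in deficient cells.

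Crisp3 stood apart from the other 4 genes. Crisp3 (chromosome 17 from 40221777 to 40242288, minus strand) has a single entry in the table, at 6.59 FPKM in haploinsufficient and 14.1 FPKM in deficient cells. The deficient level was 214% of the haploinsufficient level, a log2 ratio of 0.99 with 1 FPKM added and 1.09 without. This was the 11th highest log2 ratio of the 9879 genes (rank 11), and all 10 genes above it had a mean under 5 FPKM. Among the 3968 genes with a mean of 5 to 20 FPKM, the log2 ratio ran from −0.57 at percentile 1 to 0.47 at percentile 99, and Crisp3 was the highest. These values chose the gene and describe it only.

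Cd36, the other Oct2-dependent gene, was at a similar level. Cd36 (chromosome 5 from 17781690 to 17888801, minus strand) was at 7.82 FPKM in haploinsufficient and 8.27 FPKM in deficient cells, a log2 ratio of 0.071. In the same band of 3968 genes, 33.5% had a log2 ratio at least as high. Crisp3 was at 0.842 times the level of Cd36 in haploinsufficient and at 1.70 times in deficient cells, so the order of these genes differed between the genotypes. In both genotypes OBF-1 was followed by Oct2 and Oct1, and the Oct2-dependent genes came last. Without a spread between mice, it cannot be said which neighbours in this order differ beyond error.

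Across all genes compared, 1.27% were higher in deficient cells by a log2 ratio of at least 0.5 and 2.18% were lower by as much. Of the 5 genes, 1 was past this limit upward (Crisp3) and 0 downward. Since Crisp3 was selected on this comparison, nothing is read from that count.

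**Figure D2:**
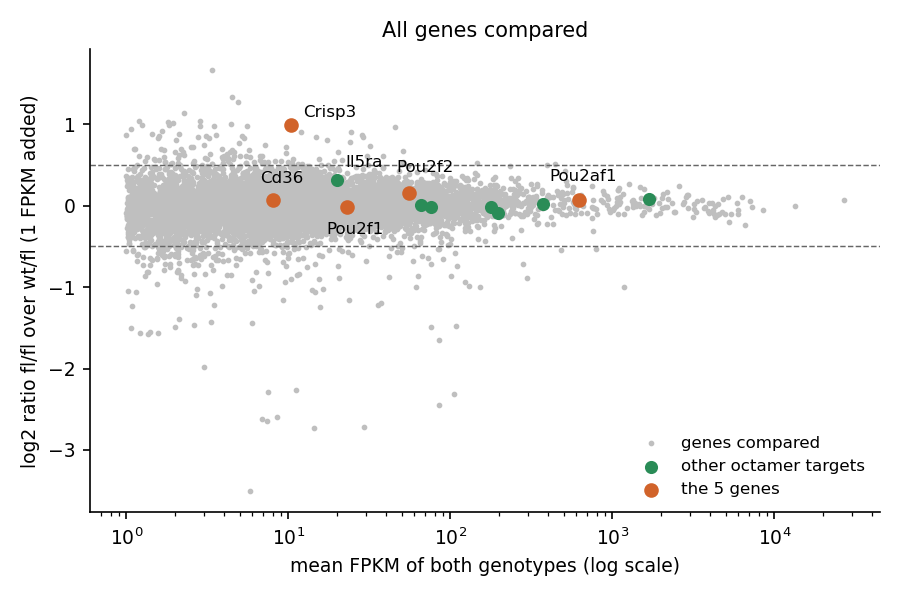
Log2 ratio of deficient (fl/fl) over haploinsufficient (wt/fl) cells (1 FPKM added) against the mean FPKM on a log axis for the 9879 genes compared, 1 point per gene, with dashed lines at 0.5 in size. Crisp3 lies at 0.99, and the other 4 genes and the other octamer targets lie between the lines, Il5ra highest at 0.32.

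The 4 entries of Pou2f2 and the 4 of Pou2f1 are groups of transcripts with the same coding sequence, and their fragments were divided among them by the authors' software. The table does not say which isoform an entry is, and they are numbered here by mean FPKM. The largest Pou2f2 entry was at 17.1 FPKM in haploinsufficient and 24.5 FPKM in deficient cells, a log2 ratio of 0.50 (0.497, just under the limit of 0.5). Its share of Oct2 FPKM was 32.4% in haploinsufficient and 41.5% in deficient cells. The second entry was at 15.9 and 13.1 FPKM, the third at 11.3 and 9.63 FPKM and the fourth at 8.45 and 11.8 FPKM. Entries of Oct2 thus stood on both sides of 0 while their sum stayed close.

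For Pou2f1 the largest entry was lower in deficient cells. It was at 12.99 FPKM in haploinsufficient and 9.93 FPKM in deficient cells, a log2 ratio of −0.36, and its share of Oct1 FPKM was 55.9% and 43.2%. The second entry was at 5.07 and 6.94 FPKM, the third at 3.59 and 3.57 FPKM and the fourth at 1.60 and 2.53 FPKM. Shifts of this size between entries were common in the table. Of the 1774 genes with at least 2 entries, 22.8% had an entry whose share moved by as much as the 12.7 percentage points of Pou2f1, 34.6% by as much as the 9.11 points of Pou2f2, and the median was 5.83 points. Of the 11 entries of the 5 genes, 1 (Crisp3) had a log2 ratio of at least 0.5 upward and 0 downward, against 3.73% and 4.56% of all entries averaging 1 FPKM or more. Because Crisp3 was selected on this comparison, nothing is read from this count of entries.

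**Figure D3:**
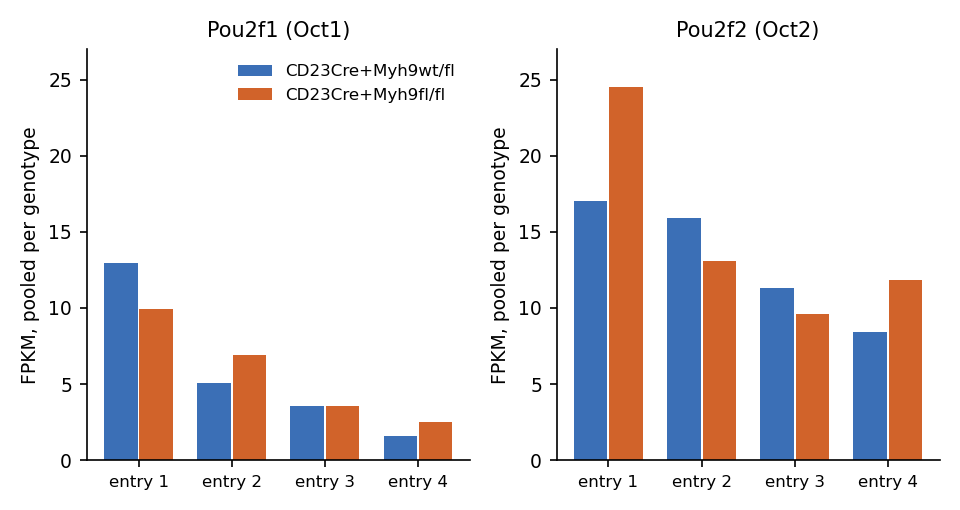
FPKM of each entry of Pou2f1 and Pou2f2, with 1 bar per genotype for the pooled value and a vertical axis from 0. In both genes some entries are higher and others lower in deficient cells, and entry 1 of Pou2f2 shows the widest gap, 17.1 against 24.5 FPKM.

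In GENCODE M21, Pou2f1 overlaps Cd247, a T cell receptor subunit gene on the opposite strand. Cd247 was at 1.14 and 0.931 FPKM, well under Pou2f1. It is not stated whether strand was used in counting, so fragments from the overlap cannot be told apart.

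The POU family as a whole was sparsely expressed. Of 15 POU genes listed, 5 averaged 1 FPKM or more, 6 were listed at 0 in both genotypes, and Pou2f3, the third octamer factor of this class, was among the latter. Besides Oct1 and Oct2, Pou6f1 was at 10.2 and 8.79 FPKM, Pou5f2 at 6.74 and 4.38 FPKM and Pou5f1 at 1.76 and 1.06 FPKM. Pou5f2 was past the limit downward with a log2 ratio of −0.52, and the median of the 5 genes was −0.19. Of the genes listed as partners of OBF-1, Siah1a, which encodes a ubiquitin ligase for OBF-1, was at 14.8 and 12.05 FPKM, and Siah1b was at 1.59 and 1.98 FPKM. Siah2, a related ligase gene, was at 9.61 and 8.10 FPKM. The kinase gene Syk was at 169 and 127 FPKM, a log2 ratio of −0.41. Of the 5 genes on this list, Pou2af1 included, 0 were past the limit in either direction, with a median of −0.22.

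Other genes known as targets of Oct2 or OBF-1 were compared beside Crisp3 and Cd36. Of 10 listed, 9 averaged 1 FPKM or more, and Crisp3 alone was past the limit, with a median of 0.025 for the 9 against 0.0026 for all genes. Crisp3 was selected on this comparison, and 1.27% of all genes compared were higher by as much, so nothing is read from its count. Il5ra, the interleukin-5 receptor alpha chain, was at 17.6 FPKM in haploinsufficient and 22.3 FPKM in deficient cells, a log2 ratio of 0.32. Spib, a transcription factor gene downstream of OBF-1, was at 203 and 190 FPKM, and the chemokine receptor gene Cxcr5 was at 180 and 178 FPKM. The remaining targets were as close. The B cell antigen gene Ms4a1 (CD20) was at 373 and 379 FPKM, the receptor subunit gene Cd79b at 1638 and 1739 FPKM, the kinase gene Btk at 76.4 and 75.8 FPKM, and the survival gene Bcl2 at 65.5 and 66.0 FPKM. Il6 was under the filter, at 0.0926 FPKM in haploinsufficient cells and listed at 0 in deficient cells.

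Among relatives of Crisp3, most were near 0. Of 14 genes of the CRISP and CAP family, 11 were under 1 FPKM in both genotypes, and 3 of these were listed at 0. Glipr1 was at 17.0 FPKM in haploinsufficient and 21.3 FPKM in deficient cells, a log2 ratio of 0.31, and Glipr2 was at 7.23 and 8.12 FPKM. Crisp1, the closest relative on chromosome 17, was at 0.116 and 0.316 FPKM. The GENCODE transcripts of Crisp3 and Crisp1 were identical at 91.1% of 1397 aligned bases, with a longest identical stretch of 70 bases, so a part of the fragments could have been assigned to either gene, and the level of Crisp3 carries that uncertainty.

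Relatives of Cd36 and genes of lipid uptake lay close to 0 in ratio. Of 12 listed, 5 averaged 1 FPKM or more, 0 were past the limit in either direction, and the median was −0.051. The class B scavenger receptor genes Scarb1 and Scarb2 were at 2.55 and 2.43 FPKM and at 10.1 and 9.48 FPKM. The fatty acid-binding protein gene Fabp5 was at 1.84 and 1.54 FPKM. Pparg, a nuclear receptor gene that controls Cd36 in macrophages, was listed at 0 in both genotypes.

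The medians of all 7 lists of other cell types were below 0, but that of T cells was 0.0029 with a mean of at least 5 FPKM, and that of platelets was 1 gene. In bulk samples, fewer cells of a type and less RNA per cell cannot be told apart. All 7 neutrophil genes averaging 1 FPKM or more were lower in deficient cells, with a median log2 ratio of −2.45, and the sum over the 12 listed was 379 FPKM in haploinsufficient and 66.9 FPKM in deficient cells. The most abundant were S100a9 (175 and 34.5 FPKM), S100a8 (145 and 25.8 FPKM) and Camp (15.3 and 1.70 FPKM), and Ngp, Retnlg, Lcn2 and Ltf were also lower by a log2 ratio of at least 1. Crisp3 thus stood in the opposite direction to neutrophil transcripts, and their part in its level was not tested. Of 8 marginal zone B cell genes, a B cell subset that also carries CD36, 2 were lower past the limit (Plac8 at 138 and 82.1 FPKM, Cd9 at 4.61 and 2.52 FPKM) and 0 higher, and the median was −0.41. Mzb1 and Dtx1, among the most abundant of that list, were at 189 and 140 FPKM and at 27.3 and 20.6 FPKM, and Dph5 was at 27.03 and 19.9 FPKM. The 2 genes with a ratio above 0 were S1pr3 (2.35 and 2.83 FPKM) and Cd1d1 (15.1 and 15.7 FPKM).

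Macrophages, platelets and red cell precursors can also carry Cd36. Of the 11 macrophage and monocyte markers, 7 averaged 1 FPKM or more, with a median of −0.15 and only Lyz2 past the limit (72.6 and 44.9 FPKM). Cd68 was at 7.41 and 6.10 FPKM and Ly6c2 at 3.56 and 2.68 FPKM, while Csf1r was at 1.42 and 1.39 FPKM and Marco at 0.116 and 0.208 FPKM. The complement genes C1qb (1.61 and 2.39 FPKM) and C1qc (1.60 and 2.04 FPKM) had ratios above 0. Of 6 platelet markers only Ppbp passed the filter (1.43 and 1.38 FPKM), Pf4 was at 0.168 and 0.880 FPKM and Itga2b at 0.173 and 0.262 FPKM, and the 6 summed to 1.91 and 2.58 FPKM. Erythroid genes were lower in deficient cells, with 3 of 3 compared past the limit and a sum of 101 and 14.1 FPKM. The globin entries were Beta-s (52.0 and 7.08 FPKM), 2 shared by Hba-a1 and Hba-a2 (summed, 25.8 and 3.05 FPKM) and 1 shared by Hbb-b1 and Hbb-b2 (19.2 and 3.23 FPKM). Genes that share an entry are near-identical copies. Slc4a1, under the filter, was at 1.29 and 0.0669 FPKM. Cd36 itself was at 7.82 and 8.27 FPKM, and the part of these cells in its level was not tested.

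T cell and plasma cell markers complete the set. The 5 T cell genes compared had a median of −0.12 with 0 past the limit in either direction, and Lck was the most abundant, at 14.5 FPKM in both genotypes. Cd3d was at 3.02 and 2.31 FPKM and Cd3e at 1.83 and 1.96 FPKM. Of the 4 plasma cell genes compared, Igj, the J chain gene (5.40 and 0.617 FPKM), and Sdc1 (2.30 and 1.13 FPKM) were lower past the limit, and the median was −0.36. The transcription factor genes Irf4 and Xbp1, which are also expressed outside plasma cells, were at 60.8 and 58.9 FPKM and at 48.8 and 45.9 FPKM.

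**Figure D4:**
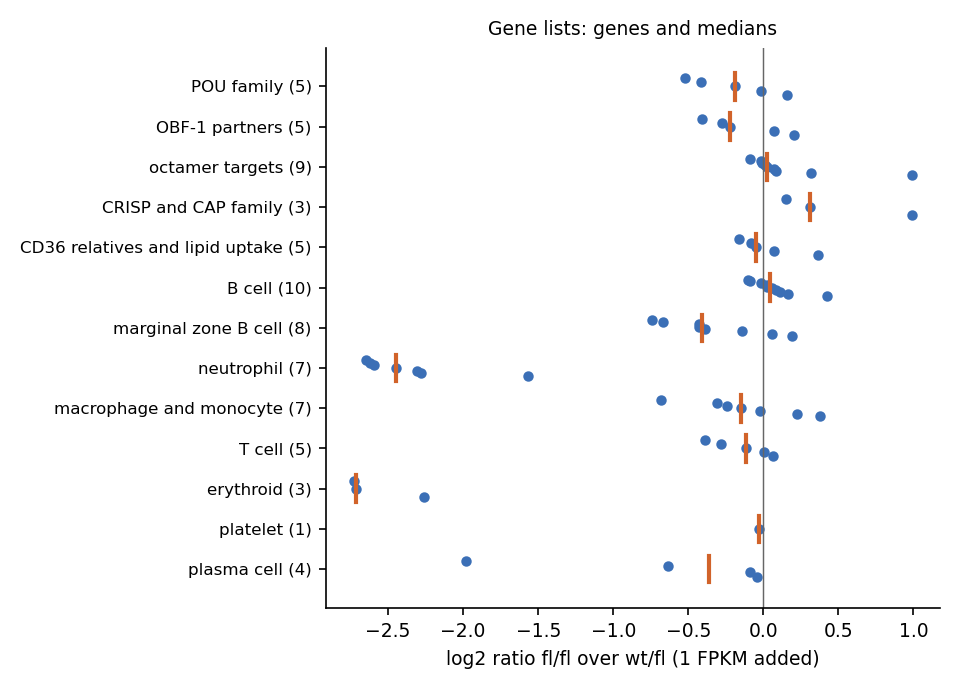
Log2 ratio of deficient (fl/fl) over haploinsufficient (wt/fl) cells (1 FPKM added) for the genes of 13 lists averaging 1 FPKM or more, where points are genes, the short lines are medians and the number after each name counts the genes. The octamer targets center at 0.025 with Crisp3, which was selected on this comparison, alone at the right. The neutrophil genes lie between −2.65 and −1.57.

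The genes whose 2 values lay nearest to those of Crisp3 were found by Euclidean distance in log2(FPKM + 1) over the 2 genotypes. They were Nagk, an N-acetylglucosamine kinase gene (7.04 and 12.2 FPKM, distance 0.21), Khk, which encodes ketohexokinase (7.31 and 12.1 FPKM, distance 0.24), and Smim8 (8.05 and 15.998 FPKM, distance 0.31). Their log2 ratios were 0.72, 0.65 and 0.91, each under that of Crisp3. With only 2 values per gene, this likeness describes level and ratio alone.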

How the data were processed

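RNA of sorted follicular B cells came from 6 mice, 3 of each genotype (wt/fl and fl/fl for floxed Myh9, all with CD23Cre). The authors deposited a table of FPKM values, pooled over the samples of each genotype, in the layout of Cuffdiff. The submitters' processing notes name Bowtie, TopHat and Cufflinks, with versions not given in the sources used here, and the builds mm10 and GRCm38. However, gene starts in the table lay within 1000 bases of GRCm38 for only 4.26% of 19042 genes, so its positions were used only to find neighbouring genes, and printed positions come from GENCODE M21 or RefSeq (GRCm38). The columns that hold the authors' own fold changes, test statistics, p-values and q-values were not used.

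FPKM was summed over the entries of a gene name, and log2 ratios of fl/fl over wt/fl were computed with 1 FPKM added. Genes averaging 1 FPKM or more were compared, and a log2 ratio of at least 0.5 in size was counted. With 1 value per genotype no model, interval or test was possible, and depth per sample is unknown. The members and the 13 gene lists were chosen with earlier results of these data known. Named were the 5 genes with every entry, Myh9, list genes averaging 1 FPKM or more, the 3 most abundant genes of each marker list and those with a log2 ratio of at least 1 in size, and the 3 genes nearest to Crisp3, though some list genes are not reported here. Of the neighbouring genes, those past the limit were named and the rest summarised. Further genes, such as Cd9, Csf1r, Marco, Pparg, Il6, Sdc1 and Crisp1, were named, and the shortened octamer and the band of 5 to 20 FPKM were set, after their values had been seen. Of the erythroid names, 9 of 10 matched the table, under 7 gene names, through shared names. Promoter windows matched 7 of the 10 octamer targets and all 5 genes. Amino acid sequences were not used here. Scripts ran in Python 3.11.15 with pandas 2.3.3, numpy 2.4.6, Biopython 1.88 and matplotlib 3.10.9 and were tested on simulated data. Alternatives were pseudocounts of 0.1 and 0.5 FPKM, a minimum mean of 5 FPKM or no filter, upper quartile and total scaling, and the largest entry of a gene.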

Additional observations from a re-analysis of the deposited data

How the results depend on the processing

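Of 25 recomputed log2 ratios of the 5 genes, 23 stayed within 0.1 of the reported value. The exceptions came from using the largest entry in place of the summed FPKM, which gave 0.50 for Pou2f2 and −0.36 for Pou2f1, since their entries differ. Pou2af1, Crisp3 and Cd36 have 1 entry each, so using the largest entry could not move their ratios. With a mean of at least 5 FPKM, 49 genes were higher and 98 lower by a log2 ratio of at least 0.5, and with a pseudocount of 0.1 FPKM, 238 and 346 (reported, 125 and 215). Without a filter or with 0.5 FPKM added, the counts stayed within 1.5 times. Of 51 recomputed list medians, 45 stayed within 0.1, 6 moved further, and 1 of these changed sign. That was the T cell median, at 0.0029 with a mean of at least 5 FPKM against −0.12 as reported. This filter dropped no compared gene of the octamer target, CRISP and CAP, B cell and erythroid lists, so their medians could not move with it. With the same filter, the plasma cell median was −0.066 (reported, −0.36) and the macrophage and monocyte median −0.46 (reported, −0.15). With a pseudocount of 0.1 FPKM, the neutrophil (−3.10), erythroid (−2.86) and plasma cell (−0.53) medians lay further below 0. Upper quartile scaling shifted the median of all genes by −0.0066. No paired analysis was possible because the table holds 1 pooled value per genotype, and for the same reason no replicate could be left out. A single mouse or sort that stood apart could not be seen, and low FPKM values have an unknown error.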

Other observations

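Genes beside Crisp3 and Cd36 were near 0. All 8 genes within 500 kb of Crisp3 in the table were at or under 0.506 FPKM in haploinsufficient and 0.316 FPKM in deficient cells, and all 4 beside Cd36 at or under 0.0331 and 0.0925 FPKM. Near Pou2f2, 18 of 36 neighbours averaged 1 FPKM or more, Cd79a and Rps19 among them, and only Pafah1b3, a subunit gene of platelet-activating factor acetylhydrolase, was past a log2 ratio of 0.5 (23.9 and 37.1 FPKM). Near Pou2af1 it was Gm684 of 7 compared (3.34 and 5.84 FPKM). Near Pou2f1 it was 0 of 7 in either direction, with log2 ratios from −0.28 to 0.040. Over all genes compared, 1.27% were higher and 2.18% lower by a log2 ratio of at least 0.5. Nothing is read from these small counts of neighbours.

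Of 7509 compared genes with a promoter window, 119 held the full octamer. Their median log2 ratio was 0.011 against 0.0029 for all 7509, with 2 higher by at least 0.5 (1.68%, against 1.13%) and 0 lower (against 1.98%). The 2 genes, named after their values were seen, were Il18, a cytokine gene (4.13 and 7.25 FPKM), and Hmga1, a chromatin protein gene (0.902 and 2.77 FPKM).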
